A study of Mus musculus with 11 samples.

Results

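The gene set described here holds 47 homeobox genes outside the Hox clusters, taken as 10 named families: Nkx (11 genes), Lhx (8), Dlx (6), Irx (6), Six2 to Six6 (5), Msx (3), and Otx, Emx, Gbx and En (2 each). They are 47 of 21627 protein-coding genes on mouse chromosomes 1 to 19 and X. The rule for the set is a list of family names and uses no measured value, although the list was drawn up with earlier results of these data known. Each locus was the gene body plus 5 kb on both sides in the mouse build mm10 (GRCm38). The loci had a median length of 15.9 kb, from 12.2 kb at Nkx2-9 to 63.7 kb at Lhx4, and a median of 25.6 CpGs per kb against 11.6 over all protein-coding genes. The Dlx1 and Dlx2 loci shared 574 bp and the Dlx6 and Dlx5 loci shared 170 bp, so the 47 loci formed 45 separate intervals of 932 kb with 23505 CpGs, 0.110% of the CpGs on these chromosomes. In 12 of the 47 loci the 5 kb flanks also touched another protein-coding gene.

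Homeobox genes encode transcription factors that bind DNA through the homeodomain and set the identity of body regions and cell types in the embryo. In pluripotent cells most of them are silent, and their CpG-rich promoters are classic targets of Polycomb complexes, which deposit trimethylation of histone H3 at lysine 27 (H3K27me3) in broad domains. CpG islands under Polycomb are usually free of DNA methylation. H3K4me1 marks enhancers and the flanks of promoters, and H3K9me3 marks heterochromatin, where DNA is usually methylated.

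The cells were E14 mouse embryonic stem cells (129/Ola background), a single established line kept in medium with fetal bovine serum and leukemia inhibitory factor, without any genetic change or treatment between groups. CUT&Tag-BS uses an antibody to guide a protein A-Tn5 transposase to a histone mark and then bisulfite converts the tagged fragments, so each CpG read from the mark's chromatin gives a methylated or unmethylated call. The 8 bisulfite libraries were H3K4me1 and H3K9me3 from 250000 cells, each sequenced as run 1 (35 bp reads) and run 2 (75 bp reads), and H3K27me3 from 4000, 20000, 100000 and 250000 cells. A control library without bisulfite was made from 250000 cells for each of the 3 marks. Each condition is represented by 1 library, with no statement of separate cultures, and the runs of a mark were taken as repeat sequencing of 1 library, so no value below has a biological replicate.

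On chromosomes 1 to 19 and X the libraries held between 377316 calls (H3K27me3, 4000 cells) and 37159887 calls (H3K27me3, 250000 cells). As a check of the cell label, the loci of 14 pluripotency genes were read in the same way. H3K4me1 peaks of run 2 touched 14 of these 14 loci (41% of all protein-coding loci). H3K27me3 peaks of the 250000-cell library touched 2 (37.7% of all protein-coding loci). The H3K4me1 peaks also touched 15 of 17 Polycomb subunit loci and 12 of 17 housekeeping loci, and the H3K27me3 peaks 6 and 2. Such peak counts are thus not particular to pluripotency genes. The median H3K4me1 call density of the pluripotency loci was 7.01 times the genome mean, against 1.94 at the Polycomb subunit loci and 2.58 at the housekeeping loci.

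The promoters are shown first, because the CpG density and the methylation of these bases are what the marks were read against. A RefSeq table of GRCm38.p6 gave a strand and the bases upstream of the annotated start for 34 of the 47 genes. The 250 bases before the start are printed for 6 of them, 5′ to 3′ on the strand of the gene, with every CG in capitals. Gbx2, Msx1 and Dlx2 represent promoters with almost no methylated call in H3K27me3 chromatin, and Nkx2-5, Nkx2-1 and Lhx8 represent promoters with more. These 6 were chosen after their values were seen. The sequences lie at chr1:89931177-89931426 (Gbx2), chr5:37824586-37824835 (Msx1), chr2:71546755-71547004 (Dlx2), chr17:26841566-26841815 (Nkx2-5), chr12:56536909-56537158 (Nkx2-1) and chr3:154330561-154330810 (Lhx8), each on the minus strand and just upstream of an annotated start. That start is the first base of the annotated gene except at Nkx2-5, where it is base 26841565 within chr17:26838664-26844988. The printed Nkx2-5 bases thus lie inside the annotated gene body.
Gbx2: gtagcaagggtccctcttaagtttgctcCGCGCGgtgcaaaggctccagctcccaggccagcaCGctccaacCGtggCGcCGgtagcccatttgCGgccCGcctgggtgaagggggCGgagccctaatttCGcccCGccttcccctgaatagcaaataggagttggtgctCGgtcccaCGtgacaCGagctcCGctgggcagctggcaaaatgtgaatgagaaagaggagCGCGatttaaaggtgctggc
Msx1: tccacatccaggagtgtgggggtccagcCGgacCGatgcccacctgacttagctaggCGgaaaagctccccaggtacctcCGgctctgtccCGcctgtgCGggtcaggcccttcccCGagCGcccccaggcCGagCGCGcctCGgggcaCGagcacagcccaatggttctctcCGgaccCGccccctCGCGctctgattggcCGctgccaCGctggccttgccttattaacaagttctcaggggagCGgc
Dlx2: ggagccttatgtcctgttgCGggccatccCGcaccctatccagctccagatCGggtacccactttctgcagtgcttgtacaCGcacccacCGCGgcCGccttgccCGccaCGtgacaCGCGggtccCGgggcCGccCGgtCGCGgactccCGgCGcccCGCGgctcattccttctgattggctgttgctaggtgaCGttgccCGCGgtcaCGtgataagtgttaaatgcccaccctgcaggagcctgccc
Nkx2-5: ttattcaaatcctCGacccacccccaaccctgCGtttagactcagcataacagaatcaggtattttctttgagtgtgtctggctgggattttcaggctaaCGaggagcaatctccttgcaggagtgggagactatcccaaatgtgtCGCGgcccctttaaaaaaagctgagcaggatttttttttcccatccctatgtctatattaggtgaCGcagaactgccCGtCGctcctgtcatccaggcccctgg
Nkx2-1: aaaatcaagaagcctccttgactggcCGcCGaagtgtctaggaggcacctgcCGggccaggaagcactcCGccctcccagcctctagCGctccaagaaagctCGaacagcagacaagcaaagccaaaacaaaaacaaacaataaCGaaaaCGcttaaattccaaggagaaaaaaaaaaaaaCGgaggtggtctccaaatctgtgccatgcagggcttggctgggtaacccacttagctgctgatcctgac
Lhx8: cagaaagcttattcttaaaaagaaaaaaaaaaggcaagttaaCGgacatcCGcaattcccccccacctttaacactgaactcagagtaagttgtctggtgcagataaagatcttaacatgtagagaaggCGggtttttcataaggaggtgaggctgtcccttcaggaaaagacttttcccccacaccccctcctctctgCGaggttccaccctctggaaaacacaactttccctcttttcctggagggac

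Gbx2 held 18 CG in these bases, Msx1 20 and Dlx2 24, against 8 for Nkx2-5, 9 for Nkx2-1 and 4 for Lhx8. Over the 34 promoters the median was 17.5 CG (4 to 30), and over all 32619 promoters of the table it was 6 (0 to 56). The 250000-cell H3K27me3 library read 2973 calls in the printed Msx1 bases, of which 0.437% were methylated (95% Wilson interval 0.256 to 0.747%). The same library gave 0.610% of 328 calls at Gbx2 (0.167 to 2.20%) and 0.571% of 525 calls at Dlx2 (0.195 to 1.67%). At Nkx2-5, which encodes a cardiac regulator, 16.7% of 492 calls were methylated (13.6 to 20.2%). Nkx2-1, a regulator of thyroid, lung and ventral forebrain, gave 11.7% of 350 calls (8.75 to 15.5%), and Lhx8, a regulator of basal forebrain neurons, gave 8.91% of 101 calls (4.76 to 16.1%). Since the 6 were picked for these levels, nothing is read from their separation, and other members did not follow that split: Nkx2-2 had 8 CG and 0.518% methylated calls (0.0915 to 2.88%), and Irx4 had 22 CG and 8.003% (6.68 to 9.56%). Because neighbouring calls can come from the same fragment or its PCR copies, the intervals reflect counting error alone.

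Single CpGs of these bases were read next. Of the 8 Nkx2-5 CpGs, each with at least 10 calls, levels ran from 5.56 to 41.1%, and 4 were over 20%. The 9 Nkx2-1 CpGs ran from 2.22 to 30.2%, with 1 over 20%. At Irx4, a regulator of heart ventricle identity with 22 CG in its 250 bases, 3 of 22 CpGs were over 20% and the highest was 25%. Among the other promoters with CpGs of at least 10 calls, no such CpG was over 20%. Six4 and Six5 had no such CpG and Otx2 had 2 of 6, and for 13 members no promoter sequence was read. The homeodomain core motif TAATTA, which reads the same on both strands, occurred in 2 of 34 member sequences (5.88%, Msx2 and Otx2) and in 4.80% of all promoters of this length.

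The 47 loci were lowly methylated in chromatin pulled down with H3K27me3. Their median level, methylated calls over all calls in the locus, was 14.4% in the 250000-cell library, with quartiles of 9.48 and 20.4%, against a median of 42.5% over all protein-coding genes with at least 20 calls. The level was under 20% in 35 of the 47 members, and in 14% of the 18480 protein-coding genes with at least 20 calls. The count depended on weighting and region. It was 24 of 47 with the mean of single-CpG levels, where each CpG counts equally, and 31 of 47 with flanks of 10 kb. The share of all genes was not recorded for these 2 settings. All 47 members had at least 20 calls here, from 318 at Six4 to 46420 at Lhx2. The lowest member was Dlx2 at 4.80% of 22456 calls (95% interval 4.52 to 5.08%), and the highest was Irx6 at 34.8% of 11593 calls (34.0 to 35.7%). In H3K4me1 run 2 the member median was 9.90%, and 38 of 47 were under 20%, as were 19.9% of 16208 genes with 20 calls. In run 1 these values were 10.98%, 37 of 47 and 20.9% of 14938 genes. H3K9me3 had 1 of 11 members under 20% in run 1 (2.97% of 7381 genes with 20 calls) and 5 of 32 in run 2 (5.68% of 13676 such genes).

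**Figure D1:**
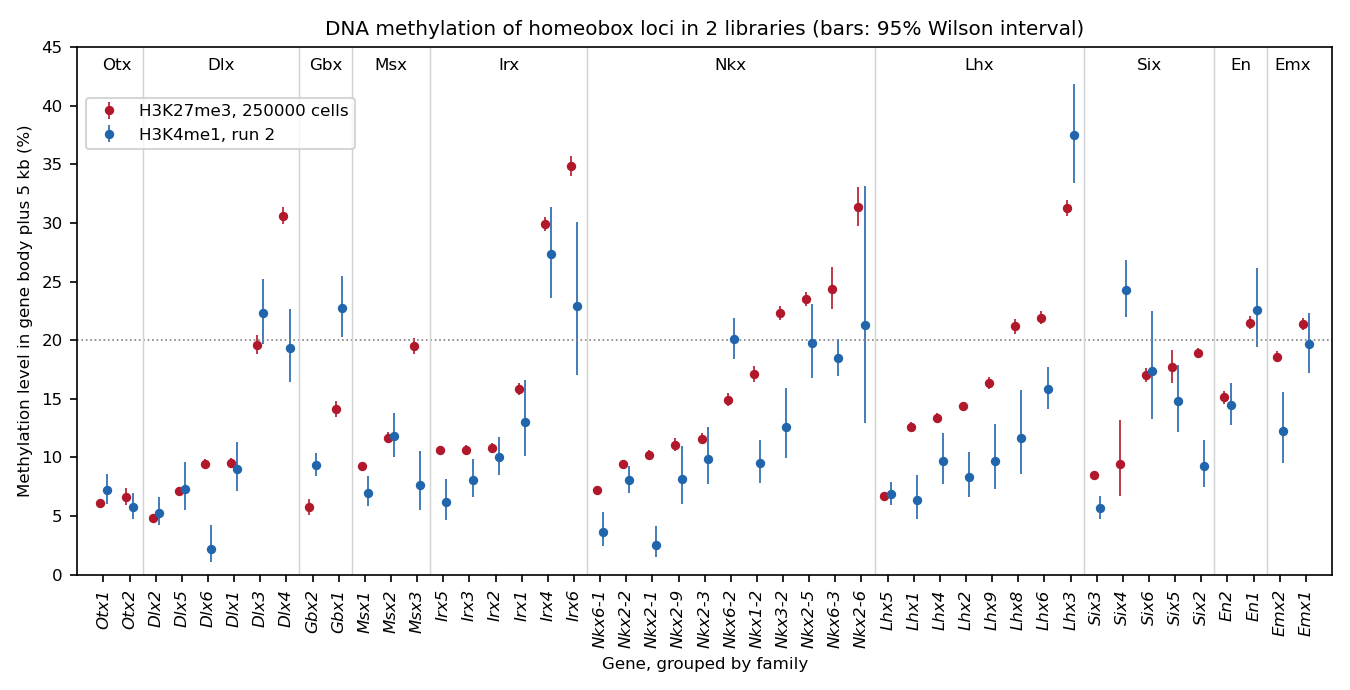
DNA methylation level (%, y axis) of each of the 47 loci (x axis, grouped by family and ordered by level) in the 250000-cell H3K27me3 library (red) and in H3K4me1 run 2 (blue), with 95% Wilson intervals as bars and a dotted line at 20%. In H3K27me3, 35 members lie under the line, Dlx2 is lowest at 4.80% and Irx6 highest at 34.8%.

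Otx, Gbx, En and Emx, families that pattern the head, ran from 5.74% at Gbx2 to 21.5% at En1 in the 250000-cell H3K27me3 library. Otx1 and Otx2, which specify forebrain and midbrain, had the lowest family median, 6.39%. Otx1 (chr11:21994764-22001651) had 9.02, 5.83, 5.86 and 6.13% in the H3K27me3 libraries from 4000, 20000, 100000 and 250000 cells. Otx2 (chr14:48656781-48667644), which is also active in pluripotent epiblast cells, had 5.31, 6.76 and 6.65% in the 3 larger libraries and only 16 calls in the smallest. Both Otx values of the 250000-cell library lay below the lowest member of the Nkx, Lhx, Irx, Msx, En and Emx families and of Six2 to Six6, and within the ranges of Dlx and Gbx. The Gbx median was 9.92%, from 5.74% at Gbx2 (chr1:89927962-89931176), a hindbrain regulator that also acts in naive pluripotent cells, to 14.1% at Gbx1 (chr5:24504426-24526848). The En genes, markers of the midbrain-hindbrain boundary, had 15.1% at En2 (chr5:28165696-28172190) and 21.5% at En1 (chr1:120602487-120607991). The Emx genes of the dorsal forebrain had 18.6% at Emx2 (chr19:59458690-59465357) and 21.3% at Emx1 (chr6:85187931-85204463), and their median of 19.96% was the highest of the 10 families with calls summed over the locus.

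The Dlx genes, which act in forebrain interneurons, branchial arches and limbs and lie as neighbouring pairs, had a family median of 9.46% and the widest span of the 10 families. Dlx2 (chr2:71543408-71546754) had 4.52, 3.20, 4.50 and 4.80% in order of rising cell number. Dlx4 (chr11:95140447-95146294) had 14.1, 26.9, 30.0 and 30.6%, and its 4000-cell value rested on 71 calls. The neighbouring Dlx3 stood at 19.6% in the 250000-cell library. Dlx4 was thus the only Dlx member at or above 20% in that library.

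The LIM-homeobox (Lhx) family had a median of 15.4%. Lhx5 (chr5:120431886-120441457), expressed in the embryonic forebrain, was lowest with 12.8, 6.35, 6.44 and 6.73% in order of cell number. Lhx3 (chr2:26200212-26208249), needed for the pituitary and for motor neurons, was highest with 29.7, 28.2, 32.1 and 31.2%. Lhx6 (chr2:36081950-36105992), a cortical interneuron regulator, had 21.9% and Lhx8 (chr3:154306288-154330560) had 21.2% with 250000 cells. The Six-family genes, with roles in eye, kidney and muscle progenitors, had a median of 17.1% and no member at 20%. Six3 (chr17:85613608-85626191), a forebrain and eye regulator, was lowest at 8.48%, and Six2 (chr17:85662736-85688254), which maintains nephron progenitors, was highest at 18.9%.

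The Nkx family, with roles in heart, gut and ventral neural tube, had a median of 14.9% and 4 of 11 members at or above 20%. Nkx6-1 (chr5:101659184-101664711), a regulator of pancreatic beta cells and ventral neural progenitors, had 6.73, 8.18, 6.99 and 7.22% in order of cell number. Nkx2-6 (chr14:69171802-69175540), expressed in pharyngeal arches, had 16.1, 28.7, 33.0 and 31.4%, the first from 31 calls. Nkx6-3 (chr8:23153271-23158948) had 24.4%, Nkx2-5 (chr17:26838664-26844988) 23.5% and Nkx3-2 (chr5:41761483-41764220), which acts in the axial skeleton, 22.3% in the 250000-cell library. The Iroquois (Irx) genes had a median of 13.3%. Irx5 (chr8:92357796-92361456) was lowest at 10.6%, while Irx6 (chr8:92674289-92680956) on the same chromosome had 42.5, 33.1, 34.1 and 34.8% in order of cell number, and Irx4 (chr13:73259589-73269622) had 29.9%. The Msx genes, which act in limb and craniofacial tissue, ran from 9.29% at Msx1 (chr5:37820491-37824585) to 19.5% at Msx3 (chr7:140046157-140049088), with a median of 11.7%.

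Members of a family are not replicates, and the ranges of neighbouring families in this order overlapped. The order of the family medians also depended on the region: over gene bodies alone the Irx median fell to 6.31% and the Nkx median to 5.86%, while the Emx median was 22.8%. It depended on the weighting as well: with the mean of single-CpG levels the Lhx median was 32.6%, above Emx at 28.7%, and the Gbx median was 20.8%. Over the 47 members, the level and the number of CpGs per kb were inversely ordered (Spearman rho -0.47, Pearson r -0.45, n = 47), as a description of loci that share 1 library.

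At the gene start the member median was close to that of all genes, and further from the start it was lower. Within 1000 bp of the start the median member level was 3.23%, against 5.01% over 13010 genes with enough calls, and 45 of 47 members were lower there than over the locus. The start was taken from RefSeq for 34 members and as the CpG-denser end of the gene for the other 13. In 500-bp steps, the median over members was 0.98% from 0 to 500 bp past the start and 0.90% over all genes. From 2000 to 2500 bp past the start it was 11.7% in members (quartiles 3.20 and 44.2%) and 78.7% in all genes (48.5 and 89.8%). From 2000 to 2500 bp upstream the medians were 41.7 and 79.5%.

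**Figure D2:**
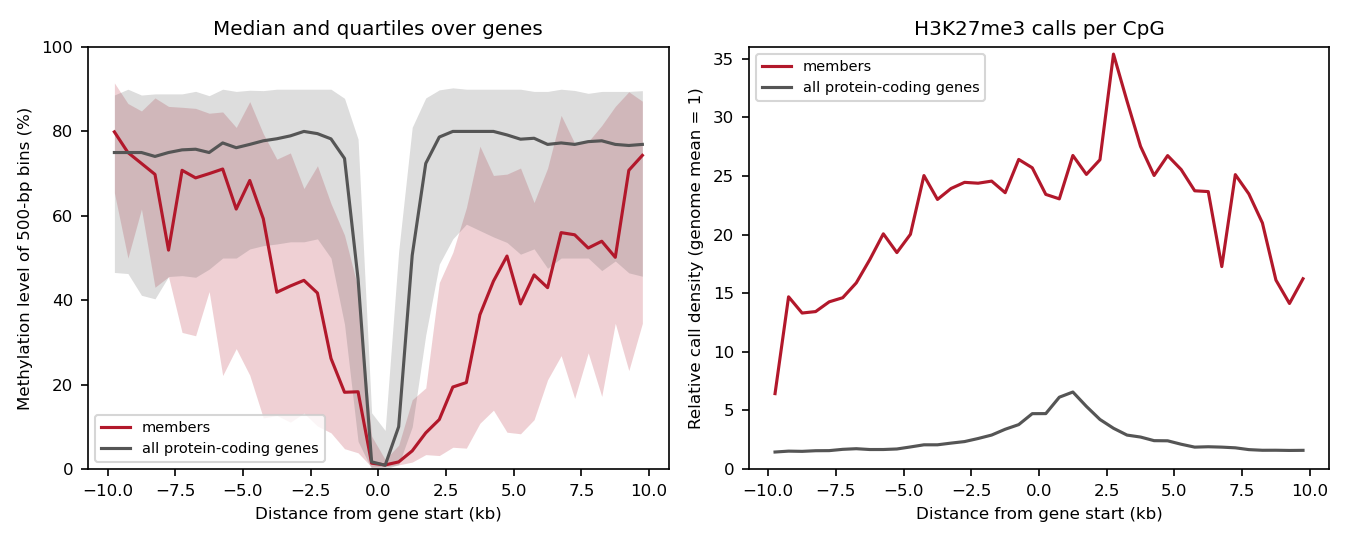
Left, methylation level (%) of 500-bp bins by distance from the gene start (kb) in the 250000-cell H3K27me3 library, as the median (line) and quartiles (shading) over genes with at least 10 calls in a bin; right, H3K27me3 calls per CpG in the same bins, relative to the genome mean of 1. Both curves on the left fall near 1% at the start, and from 2000 to 2500 bp past it the members (red) stand at 11.7% and all genes (grey) at 78.7%.

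A low-methylation stretch was taken as the longest run of neighbouring 1-kb bins in the locus with at least 10 calls and under 10% methylation. Its median length was 3 kb in members, 2 kb in each of the Pax, T-box and forkhead families and in Polycomb subunit genes, and 1 kb in all protein-coding genes. A stretch of at least 2 kb was found in 40 of 47 members, and in 26.4% of all protein-coding genes. A bin with fewer than 10 calls could not count, whatever its methylation. Members had a median of 24.8 times the genome mean of calls per CpG, against 0.233 times over all genes. The part of call depth in these contrasts of length and share was not tested. Dlx2 had the longest, 10 kb, followed by Gbx2, Otx2, Irx5 and Nkx2-2 at 9 kb each. Irx6 and Nkx2-6 had none, and 5 members (Irx4, Lhx3, Nkx2-5, Nkx3-2 and Six6) had 1 kb. Single lengths depended on where the bins began: with bins placed on whole kilobases, an alternative chosen after seeing the data, the median stayed at 3 kb while Dlx2 had 4 kb, Irx5 6 kb, Gbx2 7 kb, and Otx2 (chr14:48661001-48670000) and Nkx2-2 (chr2:147183001-147192000) 9 kb.

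Not all windows within 1000 bp of the start were unmethylated. Nkx6-3, expressed in stomach epithelium, had 39.1% of 235 calls within 1000 bp of its start, and Lhx3 had 30.2% of 997 calls. Nkx2-5 had 27.2% of 5004 calls, Nkx2-6 20.4% of 2299 calls and Irx6 19.3% of 7563 calls. In H3K4me1 run 2 the same windows had 28.1% of 267 calls at Nkx6-3, 34.9% of 63 at Nkx2-5 and 18.2% of 22 at Lhx3. The start of Nkx6-3, of Nkx2-6 and of Irx6 is the CpG-denser gene end, because the RefSeq table used gave no strand for them. That of Nkx2-5 lies inside its annotated gene body. At Lhx3 the 250 bases just upstream of the start had only 1.86% of 431 calls methylated in the 250000-cell H3K27me3 library. Most methylated calls of the Lhx3 window thus lay elsewhere in that window. By contrast Otx1 had 0.545% of 4770 calls within 1000 bp of its start in the same library.

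H3K27me3 peaks covered nearly the whole of most members. Peaks of the 250000-cell library touched 46 of 47 loci, all but Six4, and 37.7% of all protein-coding loci. They covered 23 loci from end to end, which 1.32% of all protein-coding loci reached, at a median locus length of 15.9 kb in members and 27.3 kb in all genes. The median cover was 99.0% of the locus. Over the 46 members there were 43 distinct widest peaks, with a median width of 24.7 kb (8.67 to 98.3 kb), against a median of 3.21 kb over all 13914 peaks of the list, of which 3.05% were as wide as the member median. The widest, chr17:85600341-85698662, held Six2 and Six3 together. Dlx5 and Dlx6 shared 1 peak of 43.5 kb (chr6:6846925-6890428), and Dlx1 and Dlx2 shared 1 of 33.4 kb (chr2:71522574-71555930). Lhx2, a regulator of forebrain and eye, and Lhx5 lay in peaks of 49.0 and 48.7 kb. The narrowest were at Nkx2-6 (8.67 kb), Nkx6-3 (10.2 kb) and Irx6 (11.9 kb). In the control without bisulfite 46 of 47 loci had a peak (41.6% of all loci).

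H3K4me1 peaks were present at most members but narrow. They touched 41 loci in run 1 (42.9% of all loci), 38 in run 2 (41% of all loci) and 44 in the control (42.9% of all loci), with a median cover of 13.1% in run 2. Peaks of both H3K27me3 and H3K4me1 run 2 touched 37 members, and 19.5% of all protein-coding loci. H3K9me3 peaks touched a single member, Otx1, in run 1 (11.3% of all loci), run 2 (15.5% of all loci) and the control (10.8% of all loci), and covered 2.71% of its locus in run 2.

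The calls were counted next without use of the peak lists, although calls and peaks come from the same libraries and are not independent. Relative call density is the number of calls per CpG of a locus divided by that of the whole library, so that 1 is the genome mean. The member loci took 2.53% of all calls of the 250000-cell H3K27me3 library, 0.483% in H3K4me1 run 2 and 0.0299% in H3K9me3 run 2, from 0.110% of CpGs. The median density was 24.8 in H3K27me3 (all genes 0.233), 3.76 in H3K4me1 (all genes 0.617) and 0.205 in H3K9me3 (all genes 0.301). In bulk chromatin, more cells carrying a mark and more mark per cell cannot be told apart. Across members the H3K27me3 and H3K4me1 densities had a Spearman rho of -0.02 and a Pearson r of -0.29 (n = 47 loci that share the 2 libraries). By family the H3K27me3 density median was highest in Msx (32.9), Emx (28.0) and Dlx (27.9) and lowest in Gbx (7.46), while the H3K4me1 median was highest in Gbx (8.93), Otx (6.48) and Msx (5.85) and lowest in Irx (2.25).

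**Figure D3:**
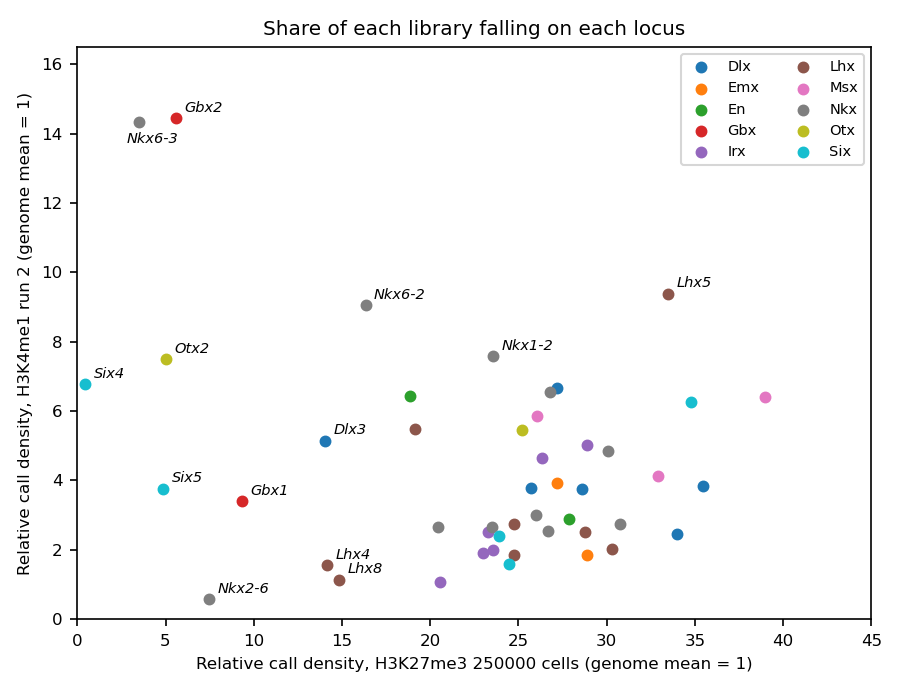
Relative call density (calls per CpG, genome mean = 1) of the 47 loci in the 250000-cell H3K27me3 library (x axis) and H3K4me1 run 2 (y axis), each point a gene coloured by family, with names where H3K27me3 is under 15 or H3K4me1 over 7. Gbx2 and Nkx6-3 stand at the upper left with H3K4me1 densities of 14.5 and 14.3, and Six4 at the far left with an H3K27me3 density of 0.464.

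A few members had high H3K4me1 densities and H3K27me3 densities far under the member median of 24.8, though all but Six4 were still above the all-gene median of 0.233 several times over. Gbx2 had H3K27me3 densities of 4.31, 4.74, 5.56 and 5.61 in order of cell number and H3K4me1 densities of 14.8 and 14.5 in runs 1 and 2. H3K4me1 peaks of run 2 covered 88.7% of its locus, and H3K27me3 peaks covered 82.5% with 250000 cells and 100% in the control. Otx2 had 1.76, 3.59, 4.62 and 5.02 in H3K27me3 and 8.02 and 7.49 in H3K4me1, with 42.2% of the locus under H3K4me1 peaks and 55.9% under H3K27me3 peaks. Nkx6-3 had 4.33, 3.88, 3.25 and 3.5 in H3K27me3 and 14.6 and 14.3 in H3K4me1, with 65.3% of the locus under H3K27me3 peaks. Its 5 kb flank also holds part of Ank1, an ankyrin gene. Six4 (chr12:73099609-73114031), a relative of Six3 active in muscle progenitors, had 0.862, 0.324, 0.468 and 0.464 in H3K27me3, under the genome mean in each library, and 7.07 and 6.77 in H3K4me1. At the other end, Msx1 had the highest H3K27me3 density, 39.0, together with an H3K4me1 density of 6.39. Irx6 and Nkx2-6 had little H3K4me1, with densities of 1.07 and 0.575 in run 2 and no H3K4me1 peak in either run.

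Methylation differed between CpGs under peaks and CpGs outside them. In the 250000-cell H3K27me3 library, CpGs under both an H3K27me3 and an H3K4me1 peak (5338 CpGs) had 4.58% methylated calls. CpGs under an H3K27me3 peak alone (15991 CpGs) had 18.6%, those under an H3K4me1 peak alone (495 CpGs) 11.8%, and those under neither (1681 CpGs) 69.5%. In H3K4me1 run 2 the 4 classes had 9.63, 13.8, 11.4 and 52.2% in the same order. Of 18552 CpGs with at least 10 calls in the 250000-cell library, 65.5% were under 10% methylated, 27.2% between 10 and 80%, and 7.36% over 80%. Irx6 had 26.6% of its 207 such CpGs over 80%, Dlx4 23.9% of 330 and Irx4 22.6% of 509, against 0.326% of 614 at Otx1 and 1.11% of 451 at Dlx2. At Irx6, 29.0% of these CpGs were under 10%, so low and high CpGs stood in the same locus.

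The first comparison of marks asked whether DNA read from H3K27me3 chromatin differed in methylation from DNA read from H3K4me1 chromatin of the same loci. It set the 250000-cell H3K27me3 library against H3K4me1 run 2 by Fisher's exact test, two-sided, with Benjamini-Hochberg adjustment over the 15934 genes with at least 20 calls in both. A member was called at an adjusted p under 0.05 and a difference of at least 10 percentage points. Such a test compares these 2 libraries, not the marks. Of 47 members, 3 were called higher in H3K27me3, where 36.7% of genes tested were, and 1 was called lower, where 10.3% of genes tested were. With no minimum difference, 26 of 47 members had an adjusted p under 0.05 (57.4% of genes tested), by the same Fisher's exact test. The median difference was 2.78 points in members and 6.83 in all genes tested.

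Irx6 had 34.8% of 11593 calls in H3K27me3 and 22.9% of 157 calls in H3K4me1, a difference of 11.9 points (Fisher's exact test, adjusted p = 0.00401). Msx3, a dorsal neural tube gene, had 19.5% of 13124 calls and 7.67% of 430 calls, 11.8 points apart (adjusted p = 1.81e-10, Fisher's exact test). Dlx4 had 30.6% of 16054 calls and 19.3% of 615 calls, 11.3 points apart (adjusted p = 4.74e-09, Fisher's exact test). Six4 went the other way, with 9.43% of 318 calls in H3K27me3 and 24.3% of 1210 calls in H3K4me1, a difference of -14.9 points (adjusted p = 7.59e-09, Fisher's exact test).

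These differences depended on which CpGs each library read. Over all called CpGs, 34 members were higher in H3K27me3 and 13 lower. Over CpGs with a call in both libraries, 10 were higher and 37 lower, with a median of -2.49 points, against -1.36 in all genes tested. By Fisher's exact test 23 members had an adjusted p under 0.05 there. By the rule of 10 points, 0 members were called higher and 1, Lhx3, lower, at -10.9 points. The shares of all genes for these directions, and for the calls over shared CpGs, were not recorded. The Irx6 difference became -2.17 points (adjusted p = 0.713), that of Msx3 -1.04 (adjusted p = 0.605), that of Dlx4 1.05 (adjusted p = 0.781) and that of Six4 -1.50 (adjusted p = 0.753), all by Fisher's exact test. Across the 47 members the levels in both libraries had a Spearman rho of 0.76 and a Pearson r of 0.75, as a description of loci that share 2 libraries.

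**Figure D4:**
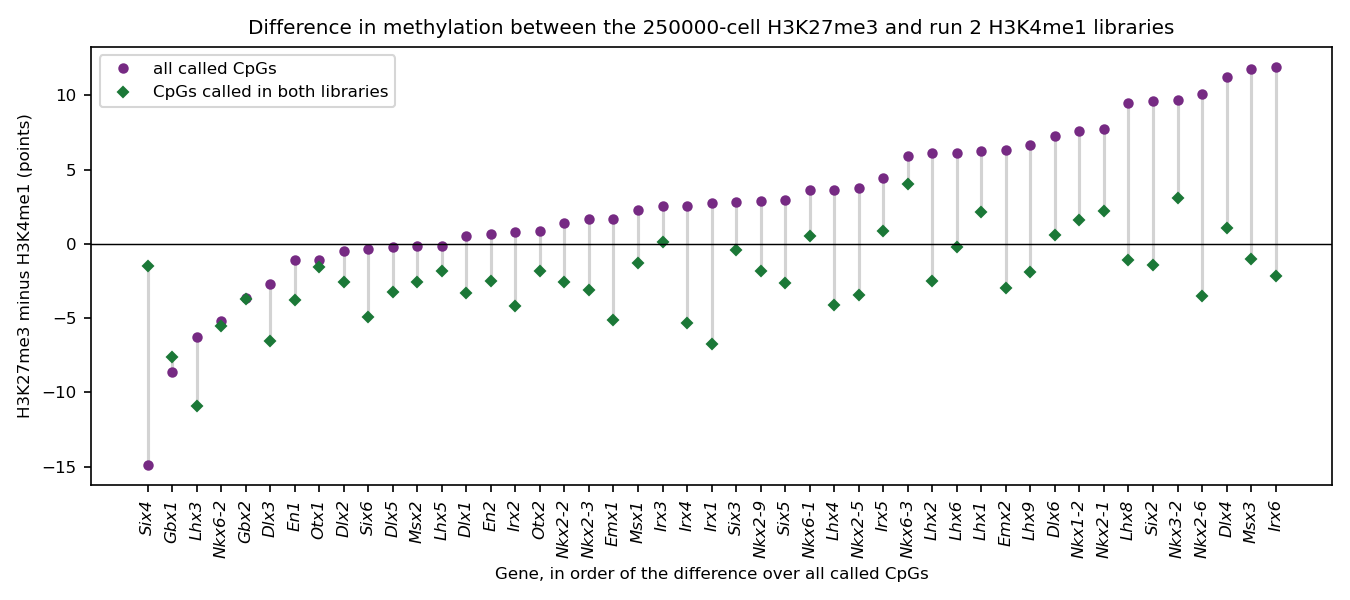
Methylation in the 250000-cell H3K27me3 library minus that in H3K4me1 run 2 (percentage points, y axis) for each of the 47 genes (x axis, ordered), over all called CpGs (purple circles) and over CpGs called in both libraries (green diamonds). Over all CpGs 34 genes lie above 0, and over CpGs called in both libraries 37 lie below 0.

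The few calls of the H3K9me3 libraries were more methylated at most members tested, at about the rate found over all genes. H3K9me3 peaks touched only Otx1, and the median H3K9me3 density of members in run 2, 0.205, was under the genome mean of 1. Whether these calls came from chromatin with the mark was not tested. In run 2 a member had a median of 27 calls (0 to 200), and 32 of 47 had the 20 calls required. The other members had fewer calls and were not tested. Against H3K4me1 run 2, 22 of 32 members were called higher in H3K9me3, where 69.7% of all genes tested were, and 0 were called lower (2.51% of genes tested). By Fisher's exact test, 23 of the 32 had an unadjusted and 22 an adjusted p under 0.05 (72.4% of genes tested for the latter). The median difference was 24.4 points in members and 29.4 in all genes. Lhx4, a pituitary and motor neuron regulator, had 73.4% of 109 calls in H3K9me3 and 9.71% of 721 calls in H3K4me1 (difference 63.7 points, Fisher's exact test, adjusted p = 1.51e-43). Irx1 had 70.7% of 75 calls against 13.0% of 414, Lhx8 69.0% of 100 against 11.7% of 308, En1 78.7% of 61 against 22.6% of 589, and Gbx1 70.8% of 24 against 22.8% of 989.

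Over CpGs called in both of these libraries, 18 members had enough calls, 9 of them were called higher, and the median difference was 11.3 points. Over all genes tested in this way the median difference was 12.2 points. Lhx4 kept a difference of 40.1 points there (28 and 41 calls, Fisher's exact test, adjusted p = 0.00398), and En1 one of 30.4 points (54 and 69 calls, adjusted p = 0.00366, Fisher's exact test). With run 1 in place of run 2 in both libraries, 11 members could be tested and 9 were called higher. Against the 250000-cell H3K27me3 library, 19 of 32 members were called higher in H3K9me3 (47.2% of all genes tested) and 0 lower (5.07% of all genes tested). By Fisher's exact test 24 had an unadjusted and 19 an adjusted p under 0.05 (53.3% of genes tested for the latter). Over CpGs called in both libraries 16 of 31 members were called higher, with a median difference of 14.2 points in members and 10.7 in all genes tested. Irx5 and Nkx2-6 were among the 4 members with a lower value in H3K9me3, at -7.08 and -7.14 points, and neither passed the test (adjusted p = 0.0596 and 0.573, Fisher's exact test). Without the run 2 H3K9me3 library, 9 of 11 members were called higher. The share of all genes called was not recorded over shared CpGs or with run 1.

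The last comparisons asked whether fewer cells gave the same result at these loci. Peaks touched 13 of 47 members with 4000 cells (2.15% of all loci), 46 with 20000 cells (26.1% of all loci) and 46 with 100000 cells (35.8% of all loci). The 13 were Dlx1, Dlx2, Dlx5, En1, En2, Irx4, Lhx6, Msx1, Nkx2-2, Nkx2-5, Six2, Six3 and Six6. No peak of that smallest library covered more than 19.2% of a member locus, the value of Six6, an eye and pituitary regulator. The median cover was 77.9% with 20000, 95.6% with 100000 and 99.0% with 250000 cells. Relative call density was less affected, with member medians of 19.1, 19.9, 22.7 and 24.8 in order of cell number. Depth rose with cell number, from a median of 153 calls per member with 4000 cells to 19894 with 250000, and the part of depth in these differences was not tested.

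**Figure D5:**
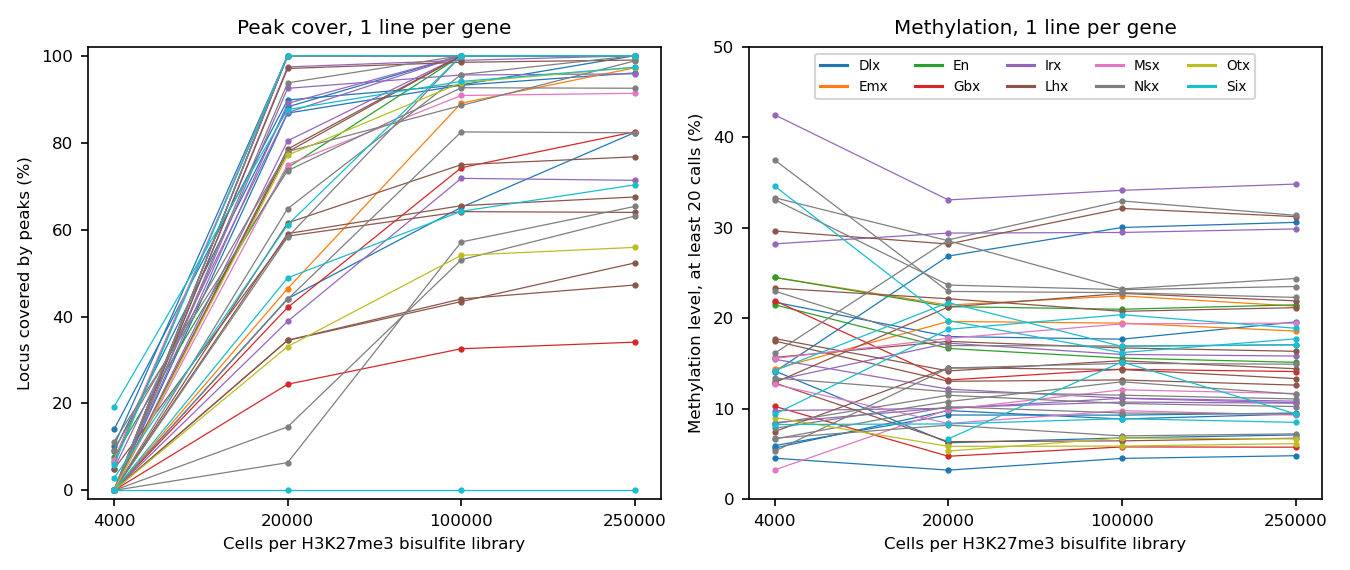
Share of each locus covered by H3K27me3 peaks (%, left) and its methylation level (%, right, loci with at least 20 calls) by the number of cells in the library (evenly spaced categories), 1 line per gene coloured by family. Cover is at most 19.2% with 4000 cells and reaches a median of 99.0% with 250000, whereas median levels stay between 14.2 and 15.2%.

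The median methylation level of the members differed little between cell numbers. It was 14.2% with 4000 cells (45 members with 20 calls, without Otx2 and Six4), 14.5% with 20000, 15.2% with 100000 and 14.4% with 250000. Under 20% were 31 of 45 members with 4000 cells (45% of 4339 genes with 20 calls). With 20000 cells 34 of 47 were (26.2% of 11769 such genes), and with 100000 cells 34 of 47 (16.6% of 17701). The genes with 20 calls differed between libraries, so these shares rest on unlike sets. The following 3 comparisons share the 250000-cell library. With 100000 cells, no member was called higher (3.15% of 17545 genes tested) or lower (5.57% of them) by Fisher's exact test. By the same test, 7 members had an unadjusted and 5 an adjusted p under 0.05 (14.5% of genes tested for the latter). The differences ran from -1.91 points at Dlx3 to 5.73 points at Six4, neither called. With 20000 cells no member was called higher (2.48% of 11757 genes tested) or lower (10.6% of them) by Fisher's exact test. By the same test, 6 had an unadjusted and 4 an adjusted p under 0.05 (21.6% of genes tested for the latter). With 4000 cells 1 of 45 was called higher (7.01% of 4339 genes tested) and 1 lower (14.1% of them). By Fisher's exact test 12 had an unadjusted and 9 an adjusted p under 0.05 (22.9% of genes tested for the latter). The differences with 4000 cells ran from -16.5 to 16.9 points.

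The member called higher with 4000 cells was Nkx3-2, with 37.5% of 152 calls against 22.3% of 19269 (15.2 points, Fisher's exact test, adjusted p = 0.000462). Over CpGs called in both libraries its difference was 12.6 points (adjusted p = 0.00665, Fisher's exact test). The member called lower was Dlx4, with 14.1% of 71 calls against 30.6% of 16054 (adjusted p = 0.0123, Fisher's exact test). Over CpGs called in both libraries the Dlx4 difference was -3.77 points (adjusted p = 0.735, Fisher's exact test).

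Other developmental transcription factor families gave a scale for these values. In the 250000-cell library the 9 Pax genes had a median level of 18.8%, the 44 forkhead genes 18.2% and the 17 T-box genes 23.1%. Their H3K27me3 peaks touched 9 of 9, 34 of 44 and 11 of 17 loci, and their median H3K27me3 densities were 13.8, 3.11 and 15.5, against 24.8 in the 47 homeobox genes. The 17 genes of Polycomb subunits had a median density of 0.198 and a median level of 35.2%, and 17 housekeeping genes had 0.166 and 19.1%. The 14 pluripotency genes had a density of 0.198 and a level of 14.6%, next to 14.4% in the members. A low level was also found at loci almost without H3K27me3. Over the 8147 protein-coding genes with an H3K27me3 peak in this library, the median level was 31.5% and the median density 1.56.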

How the data were processed

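The deposited CpG table held, for 21908008 CpGs, the counts of methylated calls and of all calls in each of 8 bisulfite libraries, as whole numbers the authors had not normalized; 0 count columns were left out. Per the submitters' processing notes, the tools were cutadapt 1.12, Bismark 0.23.0, Bowtie2 2.3.0, HOMER 4.10.3 and bedtools 2.29.2, with the build mm10, without their roles. The treatment of duplicate reads is not given in the sources used here. The authors' deposited peak lists gave positions per library without scores. All 407620 CpGs of 32619 RefSeq promoters (GRCm38.p6) stood at the same positions in the table.

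A locus was the gene body plus 5 kb on both sides. Its methylation level is summed methylated calls over summed calls, given with at least 20 calls and a 95% Wilson interval. A count of 0 was given the limit of 3 counts. A peak counted as present with an overlap of 1 bp. Libraries were compared by Fisher's exact test on calls with Benjamini-Hochberg adjustment over all protein-coding genes with 20 calls in both libraries (Python 3.11.15, scipy 1.17.1, pandas 2.3.3, numpy 2.4.6), tested on simulated data. Run 2 alone entered the tests of H3K4me1 and H3K9me3, because both runs were taken as reads of 1 library. The labels do not state whether they were. Each group was thus taken as 1 library, so families and libraries are described and p-values measure counting error only. Chromosome Y and unplaced sequence were left out.

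The genes named with values were each family's lowest and highest member, members without an H3K27me3 peak, at or above 20%, called in a comparison (the 5 largest where over 10 were called), and those with the longest and shortest low-methylation stretches; others were chosen after their values were seen. The members and the comparison lists were chosen with earlier results of these data known. Alternatives covered the region, weighting, call minimum, threshold, library, peak list, shared CpGs and run.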

Additional observations from a re-analysis of the deposited data

Results flagged for a closer look

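The change between runs differed in sign between the marks. Over the 45 merged intervals of the 47 genes, methylation in run 2 minus run 1 was -0.309 points for H3K4me1 (11.9% against 12.2%) and 0.945 points for H3K9me3 (40.4% against 39.4%). Neither change was tested against counting error, and the difference between the marks was not tested. Run 1 of H3K9me3 held 781 calls in these intervals and run 2 held 1887.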

How the results depend on the processing

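Of the 83 alternative values of the main results, 60 kept within the limits set for a like value (for counts, within 1.5 times) and 23 moved. Those that kept include counts of 0 that stayed at 0. Alternative values of the single family medians were counted apart, and of these 45 moved and 5 kept within their limits. Under 10% in place of 20%, 13 members counted as lowly methylated. With the mean of single-CpG levels, 6 of 10 family medians were under 20%, against 10 with summed calls. Over gene bodies alone the median cover by H3K27me3 peaks was 100% and the median H3K27me3 call density 26.4, and with the control peak list the cover was also 100%. The median stretch was 4 kb with bins under 20%, and the median level within 500 bp of the start was 1.35%. For H3K27me3 minus H3K4me1, 0 members were called higher at shared CpGs, and 0 higher and 0 lower with a 20-point threshold. Without run 2 of H3K4me1, 2 were called higher and 1 lower. For H3K9me3 minus H3K4me1, 10 of 11 were called higher with 50 calls, 9 of 18 at shared CpGs, 7 of 15 over gene bodies and 9 of 11 without replicate 2. For H3K9me3 minus H3K27me3 the counts were 10 of 11 with 50 calls, 6 of 15 over gene bodies and 9 of 11 without H3K9me3 replicate 2. For 4000 minus 250000 cells, 2 higher and 0 lower were called at shared CpGs, 0 and 0 with a 20-point threshold, and 0 and 2 over gene bodies. The alternatives with shared CpGs, gene bodies or run 1 test fewer members or fewer calls by construction. The minimum of 50 calls left fewer members in some comparisons and the same 47 in others, such as H3K27me3 minus H3K4me1. The 20-point threshold kept the same members and calls. Shares of all genes called were not recorded for these alternatives. With the run as a replicate block (Cochran-Mantel-Haenszel test over both runs of both marks), 27 of 39 members were called higher in H3K9me3 than in H3K4me1 and 0 lower; the numbers mark sequencing runs, not paired cultures. Depth limits H3K9me3 and the 4000-cell library most, at medians of 27 and 153 calls per member.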

Other observations

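H3K9me3 calls were scarce at most of these genes, but Nkx3-2 and Nkx2-1 were read at or above the genome mean in both runs. The H3K9me3 call density of Nkx3-2, a regulator of the axial skeleton, was 2.16 in run 1 and 1.63 in run 2, and that of Nkx2-1 was 1.35 and 1.17, against member medians of 0.289 and 0.205. Neither locus touched an H3K9me3 peak. Within 1000 bp of the Nkx2-1 start, 24.0% of 25 H3K9me3 calls in run 1 and 32.7% of 101 in run 2 were methylated. The same window had 9.89% of 5256 calls in the 250000-cell H3K27me3 library and 0.699% of 143 calls in H3K4me1 run 2. Both genes were singled out after their values were seen, and the differences in this window were not tested.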
